A study of Mus musculus with 21 samples.

Results

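The nuclear genome encodes most subunits of the mitochondrial respiratory chain and of ATP synthase, and 82 of the 54446 gene IDs in the deposited count table are such genes. They were chosen by symbol, as protein-coding mouse genes whose GENCODE M21 symbol begins with Nduf and a subunit letter, Uqcr, a Cox number or Atp5, or is one of Sdha, Sdhb, Sdhc and Sdhd, with at least 10 counts over all libraries. By symbol, 37 belong to complex I, 4 to complex II, 8 to complex III, 16 to complex IV and 17 to complex V. A further 3 rows matched by symbol but held 0 counts (Cox8b, Cox8c and a second ID of Atp5o). Of the 82 genes, 80 had enough counts to be tested. The exceptions were Cox7b2, with 13 counts in all, and Ndufa4l2, with 40.

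The respiratory chain sits in the inner mitochondrial membrane. Complex I oxidises NADH, complex II oxidises succinate and is also an enzyme of the citric acid cycle, complex III passes electrons from ubiquinol to cytochrome c, and complex IV passes them to oxygen. Complexes I, III and IV pump protons, and complex V, ATP synthase, uses the gradient to make ATP. Haematopoietic stem cells at rest are known for low mitochondrial respiration and a reliance on glycolysis, while dividing progenitors respire more. Symbols and complexes do not match exactly. Ndufa4, named for complex I, is known as a subunit of complex IV, Cox7a2l is known as a factor that joins complexes III and IV, and Atp5s is a factor that binds ATP synthase and not one of its core subunits. Whether the Cox7a2l of this mouse strain acts in that way was not tested.

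RNA was measured in 21 libraries, each from 100 to 200 cells sorted from the bone marrow of C57BL/6 mice aged 12 weeks, either knockout (KO) or wild type (WT) for Phf6, which encodes a nuclear plant homeodomain finger protein. There were 4 KO and 4 WT libraries of MPP3, 4 KO and 4 WT libraries of MPP2, and 3 KO and 2 WT libraries of LT-HSC, the long-term stem cells from which the MPP2 and MPP3 multipotent progenitors descend. The mice came as 4 pairs of KO and WT, per the series' design text, and the sources used here give neither the KO allele nor any Cre driver. Cells were gated on lineage markers, Sca-1, cKit, CD150 and CD48, and Flt3 was not stained. Libraries are named by group and number.

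Libraries held between 18892723 counts (KO MPP3 2) and 31611366 counts (KO MPP2 1). Phf6 itself had 43 to 395 counts in KO libraries, against 1545 to 5204 in WT libraries, and fell in each population (log2 fold change -3.86 in MPP3, -3.54 in MPP2 and -3.96 in LT-HSC, edgeR adjusted p = 0.00376, 0.0104 and 0.0371). Levels below are in CPM, library-scaled counts with TMM factors, and the floor of 3 counts was worth 0.0985 to 0.194 CPM, for counting error only. Of the libraries, 3 stood apart, and sums, medians and counts over the members in KO progenitors are given with and without them. Immunoglobulin genes took 45.8% of the counts in KO MPP2 1 and 25.8% in KO MPP3 1, against at most 4.08% elsewhere. The rRNA set, of annotated rRNA genes with Lars2 and other genes added by symbol, took 22.8% in KO MPP3 2, against 0.782% to 3.09% elsewhere. The 7 B and plasma cell markers together took 0.0534% to 20.4% in KO MPP3, 0.0674% to 0.0869% in WT MPP3, 0.00530% to 36.8% in KO MPP2, 0.00612% to 3.79% in WT MPP2, 0.00418% to 0.00791% in KO LT-HSC and 0.00738% to 0.00784% in WT LT-HSC. The 7 neutrophil markers took at most 0.733% in any library, in KO MPP2 1. The part of either cell type in the results was not tested.

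The labelled populations were checked against markers. Procr, a stem cell receptor, was at 57.8 to 98.2 CPM in LT-HSC and at 0 to 30.05 CPM in both progenitors. Slamf1, which encodes CD150, was at most 1.99 CPM in MPP3 and at least 9.18 CPM in MPP2 and LT-HSC, and Cd48 was at most 19.1 CPM in LT-HSC and at least 165.0 CPM in the progenitors. Some LT-HSC markers were highest in libraries that stood apart. In KO MPP3 2, Hlf was at 564.5 and Kit at 508.5 CPM, against 204.6 to 332.0 and 234.6 to 371.7 CPM in LT-HSC. Ly6a was at 1429 CPM in KO MPP2 1 and 700.3 CPM in KO MPP3 1, against 170.8 to 359.3 CPM in LT-HSC. By Flt3 and Gata1 the MPP2 libraries were of 2 kinds. Numbers 1 and 2 of both genotypes had Flt3 at 136.6 to 590.6 CPM and Gata1 at 41.3 to 149.4 CPM, and numbers 3 and 4 had Flt3 at 4.81 to 40.9 CPM and Gata1 at 293.3 to 383.1 CPM. The B and plasma cell markers split the same libraries. They took 1.94% to 36.8% of counts in MPP2 numbers 1 and 2, against 0.00530% to 0.00989% in numbers 3 and 4. Flt3 marks lymphoid-primed progenitors and Gata1 the megakaryocyte and erythroid side. The MPP3 libraries themselves had Flt3 at 644.7 to 1262 CPM. Numbers 3 and 4 were not alike in all markers. Mpo, from the MPP3 markers, was at 390.1 and 21.6 CPM in WT MPP2 3 and 4, and at 1371 and 32.0 CPM in KO MPP2 3 and 4. Results on MPP2 are therefore also given within numbers 1 and 2 and within numbers 3 and 4.

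Summed over the 82 genes, subunit mRNA was highest in MPP2. The sum averaged 24066 ± 4794 CPM in KO MPP3, 20650 ± 1621 in WT MPP3, 29235 ± 2020 in KO MPP2 and 28953 ± 4452 in WT MPP2 (SD, n = 4 each). It averaged 22274 ± 2299 CPM in KO LT-HSC (SD, n = 3) and 18837 ± 449 in WT LT-HSC (SD, n = 2). The 4 WT MPP3 libraries (19592 to 23067 CPM) lay below all 4 WT MPP2 libraries (24506 to 34800 CPM). In KO the 2 progenitors overlapped, at 17831 to 28326 CPM in MPP3 and 26669 to 31604 CPM in MPP2. The overlap came from KO MPP2 1 alone, and the other 3 KO MPP2 libraries (29200 to 31604 CPM) lay above all 4 KO MPP3 libraries. Without the 3 libraries that stood apart, the sum averaged 27806 ± 736 CPM in KO MPP3 (SD, n = 2) and 30090 ± 1318 CPM in KO MPP2 (SD, n = 3). In bulk libraries, fewer cells of a type and less RNA per cell cannot be told apart.

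**Figure D1:**
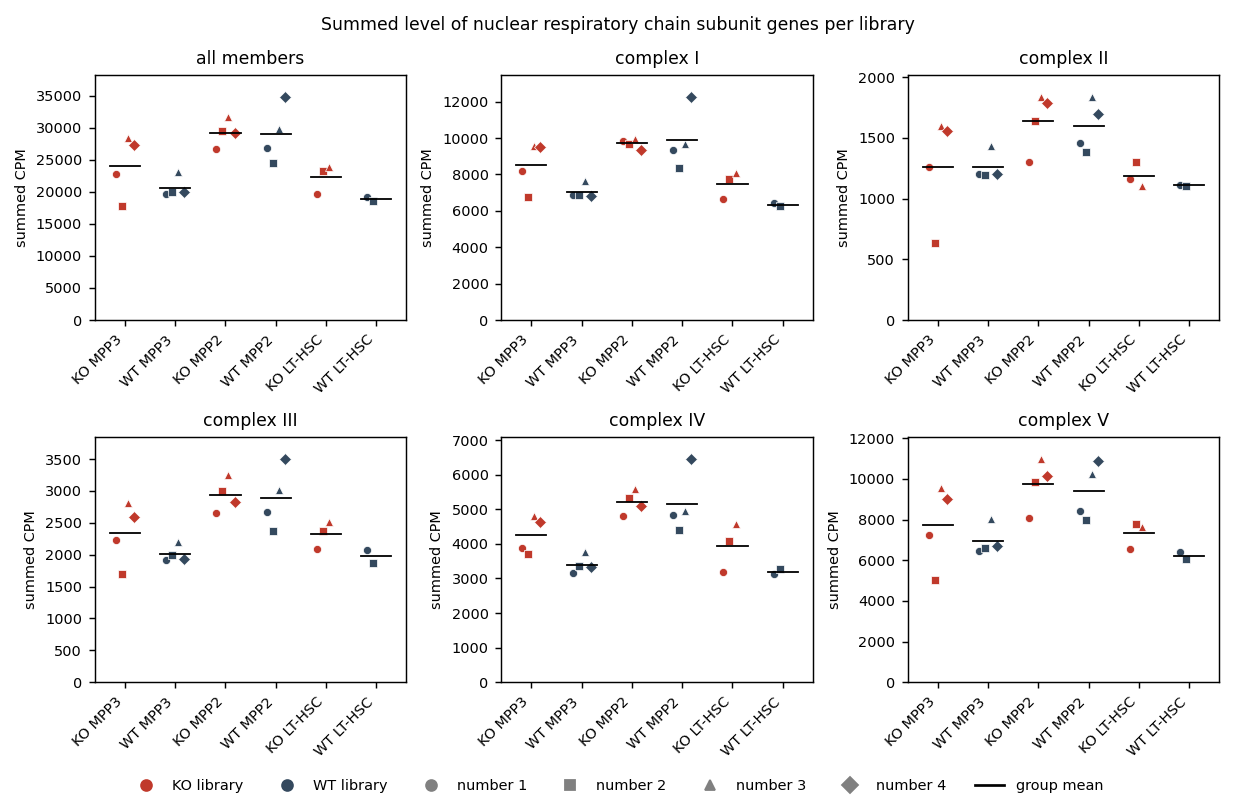
Summed CPM of the subunit genes in each library, for all 82 genes and for complexes I to V, with 1 point per library shaped by its number and a bar at each group mean. The WT MPP3 points (19592 to 23067 CPM over all genes) sit below the WT MPP2 points (24506 to 34800), and KO MPP3 2 is the lowest KO MPP3 point in every panel.

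Per kb of the median coding transcript, the highest level was that of Ndufa4, at 2100 CPM per kb over all libraries. It was followed by Cox6b1, a subunit of complex IV near the cytochrome c site, at 1102, by Atp5b, the catalytic beta subunit of ATP synthase, at 1020, by Uqcrc1, a core protein of complex III, at 989, and by Cox4i1, the common form of complex IV subunit 4, at 974 CPM per kb. The place of Uqcrc1 is uncertain, since its median of 533 bases is over 4 coding transcripts, while its annotated exons cover 4135 bases. A longer transcript would give it a lower level per kb. The lowest tested members were Cox7a1, the heart and muscle form of subunit 7a, at 2.94, and Cox4i2, the lung form of subunit 4, at 3.51 CPM per kb. Levels of some members are uncertain because their sequence recurs in other annotated transcripts. Of the 82 genes, 37 shared at least one 50-base word with another gene and 13 shared at least 20% of their words. The highest shares were 68.5% for Atp5l, 43.2% for Uqcrb, 38.4% for Atp5g2 and 37.0% for Ndufb4. The labels do not say how the authors counted such reads.

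Most members moved together from library to library. The correlation of a member with the median of the other members, over the 21 libraries, was 0.8 or more for 43 of 80 tested members and under 0.5 for 10. It was 0.99 for Atp5h, subunit d of the ATP synthase stalk, and 0.98 for Cox6b1. It was below 0 for 5 members, Cox7a2l (-0.52), Cox7a1 (-0.44), Cox6a2 (-0.27), Atp5l (-0.16) and Cox4i2 (-0.10). Cox7a1, Cox6a2 and Cox4i2 are tissue forms of complex IV subunits. These libraries share their depth scaling and their groups, so the values describe them and are no test.

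**Figure D2:**
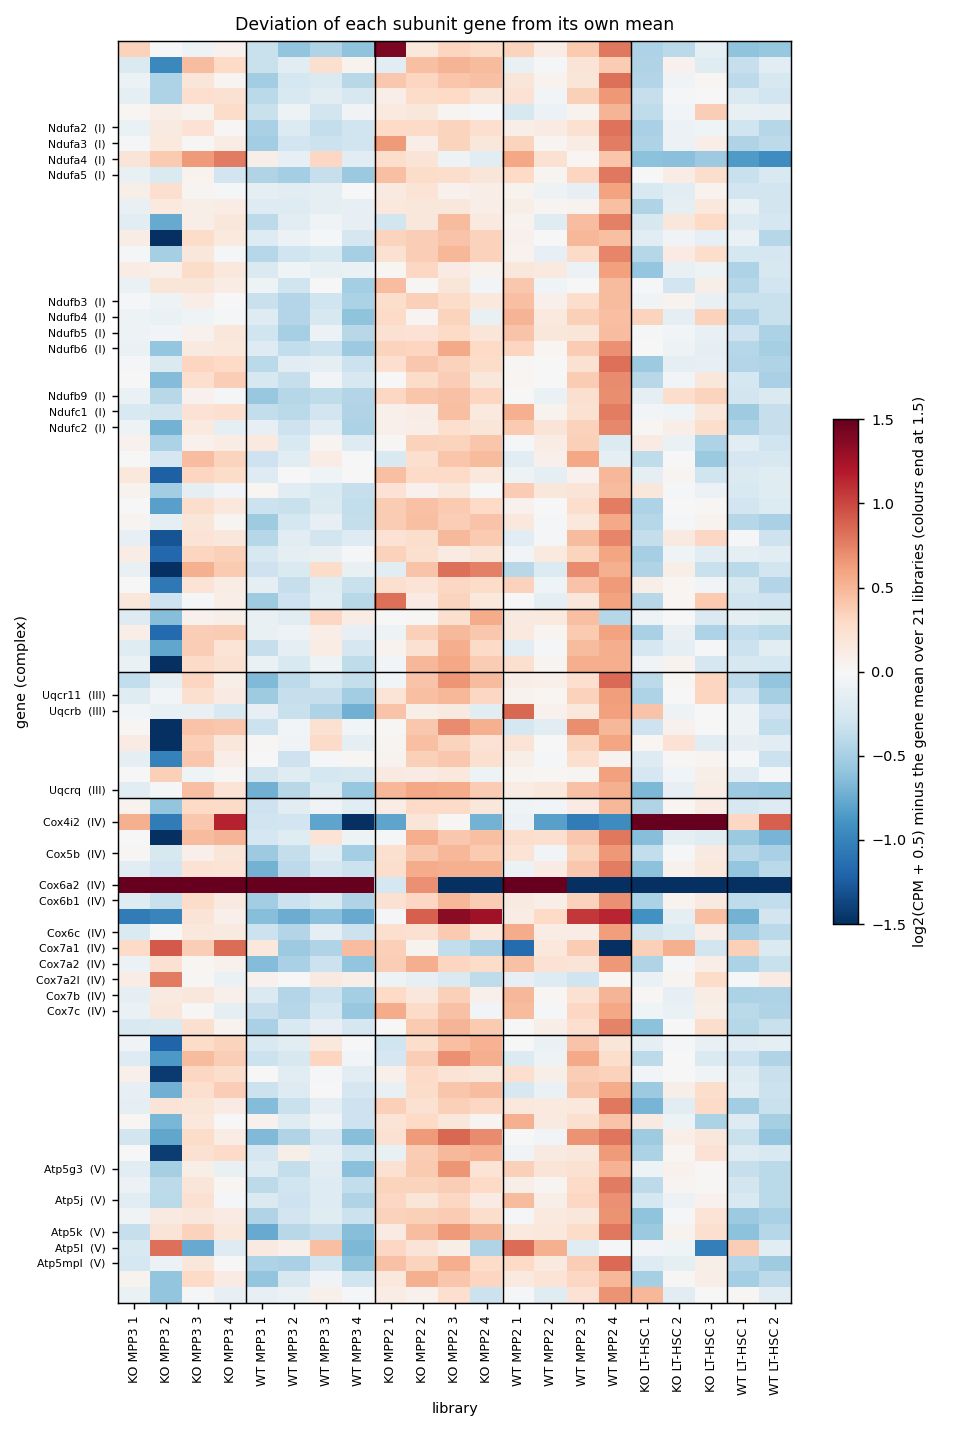
Deviation of log2(CPM + 0.5) from the gene's own mean over 21 libraries, for the 80 tested genes (rows, ordered by complex, with names for genes called in any comparison or correlated below 0 with the others) in each library (columns, by group). Most rows are darkest red in MPP2 and blue in WT MPP3, WT LT-HSC and KO LT-HSC 1. KO MPP3 2 is blue for a subset of rows, and the row of Cox6a2 follows another order.

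In WT mice, MPP3 had less mRNA than MPP2 for many subunits of complexes I, III, IV and V. Of 80 tested members, 77 had the lower fitted value in WT MPP3, and 23 fell by edgeR's quasi-likelihood test at an adjusted p under 0.05, while 0 rose. Over all genes tested, 0.981% were called lower and 0.218% higher in WT MPP3, and 51.5% had the higher fitted value. The median log2 fold change was -0.56 over the members and near 0 over all genes. For 51 members all 4 WT MPP3 libraries lay below all 4 WT MPP2 libraries (63.8% of the members, against 5.33% of all genes).

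The accessory subunits of complex I, which surround its catalytic core, held 10 of the 23 calls. Ndufb3, of the membrane arm, was at 159.3, 148.0, 163.9 and 145.0 CPM in WT MPP3, against 273.8, 211.1, 240.9 and 280.0 CPM in WT MPP2. No library overlapped, and the log2 fold change was -0.71 (SE 0.12, edgeR adjusted p = 0.0071). Ndufa5, of the arm that reaches into the matrix, was at 130.2, 124.9, 139.1 and 120.6 CPM in WT MPP3, against 217.5, 182.7, 221.2 and 307.7 CPM in WT MPP2 (log2 fold change -0.85, SE 0.15, edgeR adjusted p = 0.00915). The groups again did not overlap. The other 8 called in complex I were Ndufa2, Ndufa3, Ndufb4, Ndufb5, Ndufb6, Ndufb9, Ndufc1 and Ndufc2. The 36 tested genes of complex I had a median log2 fold change of -0.55.

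Complex II held no call in this comparison, and its sums overlapped (1192 to 1432 CPM in WT MPP3, against 1386 to 1837 CPM in WT MPP2). Sdha, its flavoprotein, was at 332.7, 323.6, 447.5 and 389.0 CPM in WT MPP3, against 396.6, 398.1, 490.7 and 267.5 CPM in WT MPP2, so the groups overlapped (log2 fold change -0.06, SE 0.19). Sdhb, the iron-sulfur subunit, and Sdhc and Sdhd, the membrane anchors, had log2 fold changes of -0.36 (SE 0.24), -0.38 (SE 0.21) and -0.55 (SE 0.27). Whether complex II differed from the other complexes was not tested.

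Complex III held 3 calls, all of small subunits. Uqcrq was at 119.7, 147.0, 170.2 and 132.3 CPM in WT MPP3, against 212.2, 219.5, 266.9 and 285.6 CPM in WT MPP2 (log2 fold change -0.79, SE 0.18, edgeR adjusted p = 0.0333). Uqcrb was at 321.2, 277.2, 253.9 and 213.2 CPM in WT MPP3, against 637.0, 365.2, 392.7 and 538.5 CPM in WT MPP2 (log2 fold change -0.86, SE 0.19, edgeR adjusted p = 0.0303), with the shared sequence given above. The groups did not overlap for either gene, and Uqcr11 was the remaining call of the complex.

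Complex IV held 6 calls. Cox7a2, the form of subunit 7a found in most tissues, was at 216.1, 240.9, 271.4 and 224.7 CPM in WT MPP3, against 457.7, 394.3, 386.1 and 532.2 CPM in WT MPP2. Every WT MPP3 library lay well below every WT MPP2 library, with a log2 fold change of -0.89 (SE 0.14, edgeR adjusted p = 0.0071). Cox7b, another small subunit, was at 307.0, 263.4, 286.7 and 250.9 CPM in WT MPP3, against 503.4, 366.2, 419.0 and 509.7 CPM in WT MPP2 (log2 fold change -0.70, SE 0.13, edgeR adjusted p = 0.0142). Cox5b, Cox6b1, Cox6c and Cox7c were the other calls. Over the 15 tested genes of complex IV the median log2 fold change was -0.68.

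Complex V held 4 calls. Atp5mpl, a small protein bound to the membrane part of ATP synthase, was at 254.2, 250.1, 284.7 and 230.5 CPM in WT MPP3, against 430.7, 386.6, 452.0 and 629.4 CPM in WT MPP2 (log2 fold change -0.90, SE 0.15, edgeR adjusted p = 0.00736). Atp5k, subunit e, which helps ATP synthase form dimers, was at 90.9, 115.2, 121.5 and 99.2 CPM in WT MPP3, against 170.2, 172.3, 187.1 and 267.8 CPM in WT MPP2 (log2 fold change -0.90, SE 0.20, edgeR adjusted p = 0.0325). Neither gene's groups overlapped. Atp5j, coupling factor 6, and Atp5g3, a gene for subunit c of the rotor ring, were the other calls. The genes of the catalytic head and its central stalk, Atp5a1, Atp5b, Atp5c1, Atp5d and Atp5e, were not called. Among them, Atp5c1 and Atp5e were still lower in every WT MPP3 library than in any WT MPP2 library, while Atp5a1, Atp5b and Atp5d overlapped. Atp5e was at 221.0 to 316.5 CPM in WT MPP3, against 382.5 to 600.7 CPM in WT MPP2.

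The number called depended on single libraries and on scaling. It was 4 without WT MPP2 4, 4 without WT MPP3 2, 4 without WT MPP3 4, 7 without WT MPP3 1, 10 without WT MPP2 3, 10 without WT MPP3 3 and 13 without WT MPP2 1, and it was 0 when counts were scaled to library totals alone, which moved the median of all genes by 0.17. With the number of the libraries as a block it was 36. Cox7a2, Ndufb3, Atp5mpl and Ndufa5 passed in each of the 8 fits that left out 1 library of these groups. Within numbers 1 and 2, where the MPP2 libraries had high Flt3, 74 of 80 members were lower in WT MPP3 (median difference in log2(CPM + 0.5) of -0.39), and within numbers 3 and 4, 76 were lower (median -0.67). Each of the 4 WT MPP3 libraries had 73 to 75 of the 80 members below the WT MPP2 library of its number.

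Where members move together, their promoters can be set side by side. RefSeq windows of build GRCm38.p6, from 250 bases before to 50 after a gene's start, were matched by symbol for 65 members, in 70 windows. The motif of NRF1, a nuclear respiratory factor, searched on both strands as GCGCA and GCGC with any 1 base between them, was in 18 of 70 windows (25.7%), against 6.38% of 21262 windows of protein-coding genes and 4.60% of all 32851 windows. The share among members called lower in WT MPP3 was 5 of 19 windows (26.3%). The ETS letters CCGGAAG were in 16 windows (22.9%, against 11.6% of protein-coding genes), and the YY1 letters AAGATGGCG were in 7 windows (10%, against 1.83%). The windows set against the members were not limited to genes tested in these libraries, and shares over tested genes alone were not computed. A match is a description of letters and not a bound site. An NRF1 match lay before the start in 13 members. Shown here are the 4 of them whose match lies in a stretch of 60 bases outside annotated exons, on the minus strand, with the match in capitals. They are Ndufb4 (chr16:37654525-37654584), Ndufs5 (chr4:123718250-123718309), Cox6a1 (chr5:115349041-115349100) and Atp5h (chr11:115420026-115420085).
Ndufb4: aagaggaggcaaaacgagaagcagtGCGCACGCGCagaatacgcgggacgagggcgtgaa
Ndufs5: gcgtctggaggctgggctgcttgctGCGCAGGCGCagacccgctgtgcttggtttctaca
Cox6a1: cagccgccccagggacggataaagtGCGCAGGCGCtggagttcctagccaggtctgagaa
Atp5h: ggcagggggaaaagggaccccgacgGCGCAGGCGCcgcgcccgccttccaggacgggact

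Of these 4, Ndufb4 was called lower in WT MPP3. Its levels were 38.6, 32.5, 37.2 and 28.8 CPM in WT MPP3, against 63.2, 49.1, 56.7 and 60.5 CPM in WT MPP2. Ndufs5, Cox6a1, the common form of subunit 6a, and Atp5h were not called, though none of their WT MPP3 libraries overlapped the WT MPP2 libraries. Ndufs5 was at 34.1 to 38.0 CPM in WT MPP3, against 44.4 to 75.4 CPM in WT MPP2. Cox6a1 was at 245.5 to 339.2 CPM in WT MPP3, against 378.6 to 683.9 CPM in WT MPP2.

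In KO mice the same comparison gave no call among the members. Of 80 members, 72 had the lower fitted value in KO MPP3, with a median log2 fold change of -0.32, and 0 passed edgeR's test in either direction, while 0.526% of all genes were called lower and 0.36% higher, and 48.1% had the higher fitted value. At an unadjusted p under 0.05 there were 22 members, limma voom called 5 (3 lower and 2 higher), DESeq2 called 2, and edgeR with the number as a block called 2. The shares of all genes called in these other ways are not given here, so these counts have no background. For 20 members the KO MPP3 libraries all lay below the KO MPP2 libraries (25% of members, against 3.59% of all genes), and for 1, Cox6a2, all lay above (3.5% of all genes). Cox6b2, the testis form of subunit 6b, was at 29.6, 31.0, 70.7 and 65.2 CPM in KO MPP3, against 61.1, 115.1, 158.4 and 150.6 CPM in KO MPP2, and the groups overlapped by 2 libraries of KO MPP3 and 1 of KO MPP2 (log2 fold change -1.30, SE 0.35, edgeR adjusted p = 0.0901). Atp5g3 was at 521.7, 414.8, 621.8 and 542.5 CPM in KO MPP3, against 683.3, 769.2, 927.0 and 671.0 CPM in KO MPP2, without overlap (log2 fold change -0.54, SE 0.15, edgeR adjusted p = 0.0955). Without the 3 libraries that stood apart the median was -0.12, with 17 of 80 higher, and 35 members lay below without overlap (16% of all genes) and 6 above (13.7%).

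The larger median in WT than in KO was read against a direct test of the difference. As the KO effect in MPP3 minus that in MPP2, 68 of 80 members were above 0, with a median of 0.25 on the log2 scale, against 49.9% of all genes above 0, and edgeR called 0 members and 0% of all genes. At an unadjusted p under 0.05 there were 12 members, and limma voom and DESeq2 called 0. Ndufa4 had the smallest p among the members named here, a difference of 0.74 (SE 0.22, unadjusted p = 0.00388, edgeR adjusted p = 1). Without the libraries that stood apart the median was 0.41, with 77 of 80 above 0. A difference between the genotypes was not called for any member.

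MPP2 also had more subunit mRNA than LT-HSC in WT mice, a comparison that shares the WT MPP2 libraries with the one above. Of 80 members, 77 had the higher fitted value in WT MPP2, with a median log2 fold change of 0.66, and 6 rose by edgeR's test. Over all genes, 49.6% had the higher fitted value, 0.365% were called higher and 0.265% lower. No member was called lower. For 66 members all WT MPP2 libraries lay above both WT LT-HSC libraries (82.5% of members, against 11.6% of all genes), and for 1, Cox4i2, all lay below (15.3% of all genes). The 6 calls were Ndufa4, Ndufb3 and Ndufb5 under complex I by symbol, Cox6c and Cox7b of complex IV, and Atp5mpl of complex V. Complexes II and III held none.

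Ndufa4 showed the largest rise of the 6. It was at 1375, 1073, 933.6 and 1221 CPM in WT MPP2, against 510.4 and 480.0 CPM in WT LT-HSC (log2 fold change 1.22, SE 0.21, edgeR adjusted p = 0.0102). Atp5mpl was at 430.7, 386.6, 452.0 and 629.4 CPM in WT MPP2, against 257.1 and 241.6 CPM in WT LT-HSC (log2 fold change 0.93, SE 0.19, edgeR adjusted p = 0.0328). Cox7b was at 366.2 to 509.7 CPM in WT MPP2, against 258.1 and 258.9 CPM in WT LT-HSC (log2 fold change 0.80, SE 0.17, edgeR adjusted p = 0.0351). None of these groups overlapped.

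These calls rested on few libraries. Without either WT LT-HSC library none of the 6 passed, and without WT MPP2 1, 3 or 4 there were 2, 2 and 1 calls. There were 0 calls with library totals alone, which moved the median of all genes by -0.18, and 0 with the run of title numbers, taken as the mouse, as a block. DESeq2 called 32 and limma voom 41, but the shares of all genes that they called are not given here. Within numbers 1 and 2, the WT LT-HSC libraries that exist, 75 of 80 members were higher in WT MPP2 (median difference 0.45). Numbers 3 and 4 hold no WT LT-HSC library. WT LT-HSC 2 had 0.509% of its counts in neutrophil markers, whose part was not tested.

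In KO mice 75 of 80 members had the higher fitted value in MPP2, with a median log2 fold change of 0.39, but edgeR called 0. Over all genes, 52.5% had the higher fitted value, 0.758% were called higher and 1.05% lower. At an unadjusted p under 0.05 there were 34, and limma voom called 25 (1 of them lower) and DESeq2 5 (1 of them lower). Here too the shares of all genes called by limma voom and DESeq2 are not given. With the number as a block edgeR called 3, but KO LT-HSC 3 has a title number in the run of KO MPP2 4, so that block may set it beside libraries of another mouse. With the runs of title numbers as a block edgeR called 0. Without the libraries that stood apart it called 6, with a median of 0.37 and 74 of 80 higher. KO MPP2 libraries lay above all 3 KO LT-HSC libraries for 36 members (45% of members, against 6.59% of all genes), and below them for 1, Cox4i2 (7.62% of all genes). Without KO MPP2 1 these were 53 members (13.6% of all genes) and 2 (12.1%). The smallest adjusted p belonged to Ndufa1, an X-linked subunit of complex I, at 560.1, 234.9, 263.5 and 254.0 CPM in KO MPP2, against 152.4, 158.8 and 190.8 CPM in KO LT-HSC (log2 fold change 0.97, SE 0.25, edgeR adjusted p = 0.0509). The library at 560.1 CPM was KO MPP2 1, which held 45.8% immunoglobulin counts, and the part of those cells was not tested. Ndufa4 followed (log2 fold change 0.66, SE 0.17, edgeR adjusted p = 0.0587). As the KO effect in MPP2 minus that in LT-HSC, 13 of 80 members were above 0, against 49.9% of all genes, and edgeR called 0 members and 0% of all genes. At an unadjusted p under 0.05 there were 8, and limma voom and DESeq2 called 0. The median was -0.24, and -0.23 without the libraries that stood apart.

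The summed levels of MPP3 and LT-HSC overlapped in KO, and lay at 19592 to 23067 CPM in WT MPP3, against 18519 to 19155 CPM in WT LT-HSC. Ndufa4 was the single call of edgeR in both genotypes. In WT, 60 of 80 members had the higher fitted value in MPP3 (median 0.07, 52.1% of all genes higher), and 1 was called higher and 0 lower, against 0.379% and 0.72% of all genes. All 4 WT MPP3 libraries lay above both WT LT-HSC libraries for 9 members (11.3%, against 12% of all genes) and below them for 4 (5%, against 14.2% of all genes), so neither share exceeded that of all genes. In KO, 55 of 80 were higher in MPP3 (median 0.08, 51.9% of all genes higher), and 1 was called higher and 0 lower, against 1.09% and 1.56% of all genes. KO MPP3 libraries lay above all KO LT-HSC libraries for 4 members (5%, against 5.28% of all genes) and below for 1 (6.73% of all genes). Without the libraries that stood apart the KO median was 0.22, with 67 of 80 higher, 37 members above without overlap (17.3% of all genes) and 2 below (16.6%), and edgeR called 3.

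Ndufa4 (ENSMUSG00000029632.7, chromosome 6, 11900292 to 11907497, mm10) was at 1047, 1202, 1427 and 1580 CPM in KO MPP3, against 598.3, 594.0 and 628.4 CPM in KO LT-HSC. Every KO MPP3 library lay above every KO LT-HSC library, with a log2 fold change of 1.11 (SE 0.18, edgeR adjusted p = 0.00114). The call held in all 10 other settings tried and in the 7 fits that left out 1 library, with adjusted p from 2.2e-07 to 0.0461. With the number of the libraries as a block 2 members were called, and with the runs of title numbers 1. In WT it was at 977.6, 840.0, 1139 and 820.2 CPM in MPP3, against 510.4 and 480.0 CPM in LT-HSC (log2 fold change 0.93, SE 0.20, edgeR adjusted p = 0.0282). Leaving out WT LT-HSC 1, WT LT-HSC 2, WT MPP3 1 or WT MPP3 3 ended that call, as did library totals alone (adjusted p = 0.224), no filter (0.0632) and the block by runs of title numbers (0.103). Across the 6 groups the means of Ndufa4 lay in the order KO MPP3, WT MPP2, KO MPP2, WT MPP3, KO LT-HSC, WT LT-HSC. The libraries of neighbouring groups in that order overlapped, except between WT MPP3 and KO LT-HSC and between KO LT-HSC and WT LT-HSC.

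**Figure D3:**
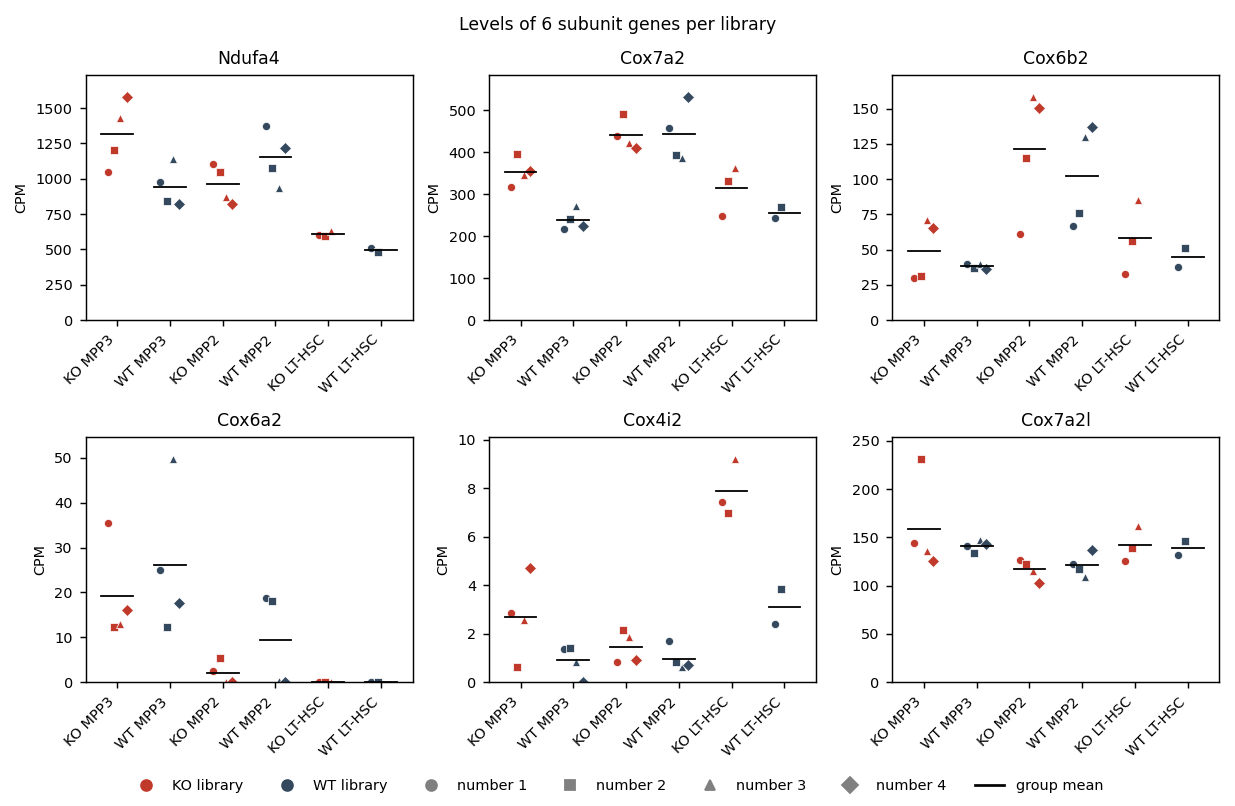
CPM per library of 6 subunit genes, with 1 point per library shaped by its number and a bar at each group mean. Ndufa4 is at 480 to 628 CPM in LT-HSC and at 820.2 CPM or more in all MPP2 and MPP3 libraries, and Cox6a2 is at or near 0 in LT-HSC.

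Among the tissue forms of complex IV subunits, Cox7a1, Cox6a2 and Cox4i2 had the negative correlations given above, while Cox6b2 had one of 0.88. Cox6a2, the heart and muscle form of subunit 6a, had 0 counts in both WT LT-HSC libraries and 0.108, 0 and 0 CPM in KO LT-HSC, where the first value stands for 3 counts. It was at 35.4, 12.2, 13.1 and 16.1 CPM in KO MPP3 and at 25.1, 12.2, 49.7 and 17.7 CPM in WT MPP3. The mean in WT MPP3 was at least 248-fold higher than the floor of 3 counts in a WT LT-HSC library, but the edgeR adjusted p was 0.152, and it was 0.0579 for KO MPP3 against KO LT-HSC. In MPP2 it was at 2.58 and 5.46 CPM in KO libraries 1 and 2 and at 0 in KO libraries 3 and 4, against 18.7 and 18.2 CPM in WT libraries 1 and 2, and 0.361 and 0 CPM in WT libraries 3 and 4. The MPP2 libraries with Cox6a2 above 1 CPM were those with high Flt3. They were also those with 1.94% to 36.8% of counts in B and plasma cell markers, and the part of either was not tested. Per kb, Cox6a2 made up at most 10.96% of the subunit 6a pair in any WT MPP3 library.

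Cox4i2, a form of subunit 4 that is induced by low oxygen in other cells, was at 7.44, 6.99 and 9.21 CPM in KO LT-HSC, against 2.39 and 3.84 CPM in WT LT-HSC. The groups did not overlap, and the difference was not called (edgeR adjusted p = 1). Elsewhere it was at most 4.69 CPM, and per kb it made up at most 1.44% of the subunit 4 pair. Cox6b2 made up 6.73% to 19.9% of the subunit 6b pair per kb. Cox7a2l held 17.3% to 25.7% of the subunit 7a trio per kb in KO MPP3 and 24.5% to 27.8% in WT MPP3, 12.9% to 14.7% in KO MPP2 and 13.3% to 15.0% in WT MPP2, and 19.9% to 23.1% in KO LT-HSC and 24.2% to 24.4% in WT LT-HSC. Its own level was at 133.8 to 147.6 CPM in WT MPP3 and 109.3 to 136.6 CPM in WT MPP2, against a fall of Cox7a2 between the same libraries. Of the 3 genes for subunit c, whose mature proteins are the same, Atp5g3 supplied 83.1% to 90.6% per kb in every library. That share rests on a median coding transcript of 2675 bases for Atp5g1, against 718 for Atp5g3, and by CPM alone Atp5g3 held 64.6% to 77.7% and Atp5g1 18.6% to 30.7%. Cox7b2 was at 0.521 CPM in KO MPP3 1 and 0.0408 CPM in WT MPP2 2, and 0 elsewhere.

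Loss of Phf6 gave no call among the members in any population. In MPP3, 72 of 80 members had the higher fitted value in KO, against 50.5% of all genes, with a median log2 fold change of 0.27. By complex the medians were 0.28 in I (36 of 36 higher), 0.07 in II (3 of 4), 0.30 in III (5 of 8), 0.37 in IV (14 of 15) and 0.20 in V (14 of 17). edgeR called 0 members, with 24 at an unadjusted p under 0.05, and limma voom and DESeq2 also called 0. Over all genes edgeR called 0.00474% higher and 0.00474% lower. For 19 members all 4 KO MPP3 libraries lay above all 4 WT MPP3 libraries (23.8%, against 1.07% of all genes). Without KO MPP3 1 and KO MPP3 2 there were 67 (11.6% of all genes).

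Cox7a2 had the smallest p in this comparison, at 318.4, 395.5, 345.0 and 354.9 CPM in KO MPP3, against 216.1, 240.9, 271.4 and 224.7 CPM in WT MPP3. Each KO library lay above each WT library (log2 fold change 0.57, SE 0.14, unadjusted p = 0.000819, edgeR adjusted p = 0.88). Uqcrq was at 175.5, 195.2, 269.0 and 227.2 CPM in KO MPP3, against 119.7, 147.0, 170.2 and 132.3 CPM in WT MPP3, again without overlap (log2 fold change 0.61, SE 0.17, edgeR adjusted p = 0.88). Ndufb3 was at 196.8, 189.8, 215.9 and 201.8 CPM in KO MPP3, against 145.0 to 163.9 CPM in WT MPP3 (log2 fold change 0.38, SE 0.11, edgeR adjusted p = 0.88). Atp5k was at 121.2, 176.0, 195.9 and 171.8 CPM in KO MPP3, against 90.9 to 121.5 CPM in WT MPP3, so that 1 library of each group crossed (log2 fold change 0.64, SE 0.20, edgeR adjusted p = 0.88). Sdha was the named member with the lower value in KO (log2 fold change -0.20, SE 0.19).

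KO MPP3 2, rich in counts of the rRNA set, had a different profile from the other KO MPP3 libraries. It lay below the other 3 for 52 of 80 members, above them for 10 and among them for 18. For 18 members it was under 0.5 times their mean, and these had a median coding transcript of 1094 bases, against 669.5 over the 80 members. Uqcrc2, the second core protein of complex III, was at 28.8 CPM there, against 207.0 to 243.3 CPM in the other 3, and Uqcrc1 was at 93.3, against 499.0 to 661.2 CPM. Cox7a2l, at 231.2 CPM against 125.3 to 144.7 CPM, and Uqcrh, the hinge protein of complex III, at 418.1 against 312.6 to 331.8 CPM, lay above. The other 3 KO MPP3 libraries lay above every WT MPP3 library for 45 of 80 members. The share of all genes was not computed for these 3 libraries. It was 1.07% with all 4 KO MPP3 libraries and 11.6% without KO MPP3 1 and KO MPP3 2. Without KO MPP3 2 the median over the members was 0.36, and without all 3 libraries that stood apart it was 0.44, with 76 of 80 higher. Within numbers 1 and 2 it was 0.13 (47 of 80 higher), and within numbers 3 and 4 it was 0.39 (75 of 80 higher). With library totals alone the median of the members was 0.08 and that of all genes -0.19.

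**Figure D4:**
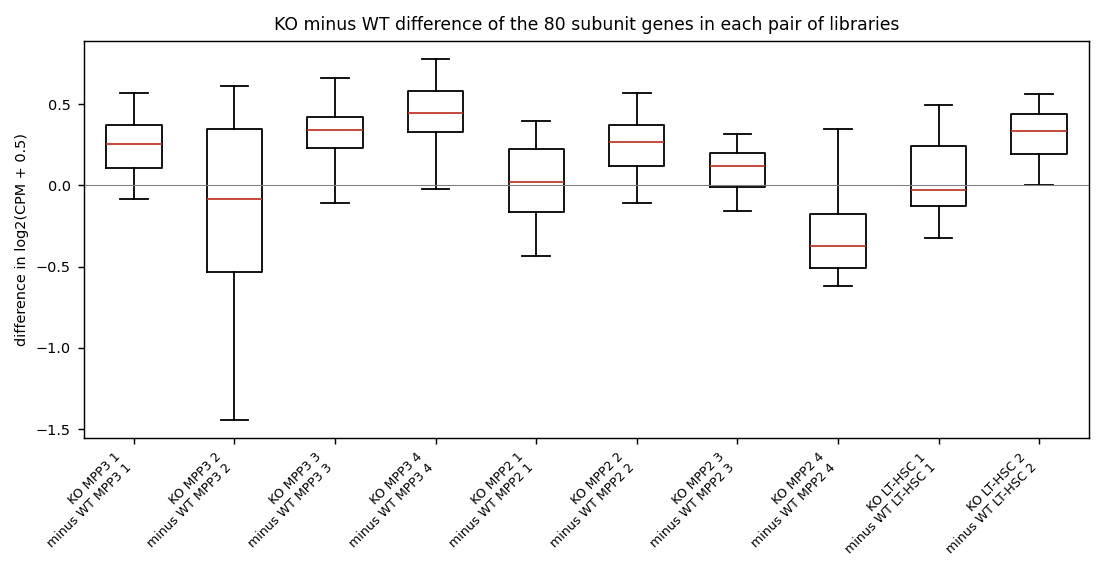
Difference in log2(CPM + 0.5), KO minus WT, over the 80 tested genes for each pair of libraries with the same number; red lines are medians, boxes are quartiles and whiskers run from the 5th to the 95th percentile. The MPP3 medians are 0.26, -0.08, 0.34 and 0.45, those of MPP2 0.02, 0.27, 0.12 and -0.37, and those of LT-HSC -0.03 and 0.33.

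In MPP2 the KO and WT levels were spread around each other. Of 80 members, 42 had the higher fitted value in KO, against 51% of all genes, with a median log2 fold change of 0.01. edgeR called 0 members and 0.00474% of all genes higher and 0.00948% lower. No member reached an unadjusted p under 0.05, and limma voom and DESeq2 called 0. The member of smallest p was Uqcrb, at 471.9, 373.5, 384.2 and 310.5 CPM in KO MPP2, against 637.0, 365.2, 392.7 and 538.5 CPM in WT MPP2, with overlapping groups (log2 fold change -0.33, SE 0.19, edgeR adjusted p = 0.799). The pairs went different ways, with 72 of 80 members higher in KO in pair 2 (median 0.27) and 12 in pair 4 (median -0.37). Without the libraries that stood apart the median was 0.02, with 43 of 80 higher. Within numbers 1 and 2 the median was 0.15 and within numbers 3 and 4 it was -0.11.

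In LT-HSC, 77 of 80 members had the higher fitted value in KO, against 50.3% of all genes, with a median log2 fold change of 0.26. edgeR called 0 members and 0% of all genes higher and 0.00474% lower, with 8 members at an unadjusted p under 0.05, and limma voom and DESeq2 called 0. For 24 members the 3 KO libraries lay above both WT libraries (30%, against 7.53% of all genes). The 7 MPP2 markers together took 0.0593%, 0.119% and 0.0776% of counts in KO LT-HSC, against 0.0316% and 0.0368% in WT LT-HSC, without overlap. In the same order, the median log2 deviation of the members from their own means was -0.36, -0.015 and 0.05 in KO LT-HSC. It was -0.31 and -0.33 in WT LT-HSC. The summed level of all members in KO LT-HSC 1 was 19649 CPM, against 19155 and 18519 CPM in WT LT-HSC. Of the 7 markers, 3 lay above WT in every KO library, Gata1, Vwf and Pf4, a platelet factor, at 337.6 to 701.1 CPM in KO LT-HSC, against 73.1 to 141.9 CPM in WT LT-HSC. The other 4 overlapped, 0 of the 7 were at 0 in all LT-HSC libraries, and their part in the result was not tested. Vwf, though on this list, was at 1.71 to 34.4 CPM in WT MPP2, against 44.9 and 55.3 CPM in WT LT-HSC. Ndufb4 was at 55.7, 39.8 and 56.4 CPM in KO LT-HSC, against 32.0 and 34.8 CPM in WT LT-HSC (log2 fold change 0.60, SE 0.21, unadjusted p = 0.00975, edgeR adjusted p = 1). Ndufc2, a small membrane subunit of complex I, was at 319.4, 337.1 and 378.9 CPM in KO, against 228.2 and 247.7 CPM in WT (log2 fold change 0.54, SE 0.21, edgeR adjusted p = 1). The KO levels of both genes lay above the WT levels in each library. By pair, 38 of 80 members were higher in KO in pair 1 (median -0.03) and 75 in pair 2 (median 0.33). Without KO LT-HSC 3 the median was 0.18. As the KO effect in MPP3 minus that in LT-HSC, 37 of 80 members were above 0 (median -0.0045), against 49.5% of all genes. edgeR called 0 members and 0% of all genes, with 0 at an unadjusted p under 0.05, and limma voom and DESeq2 called 0. Without the libraries that stood apart the median was 0.20, with 66 of 80 above 0.

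**Figure D5:**
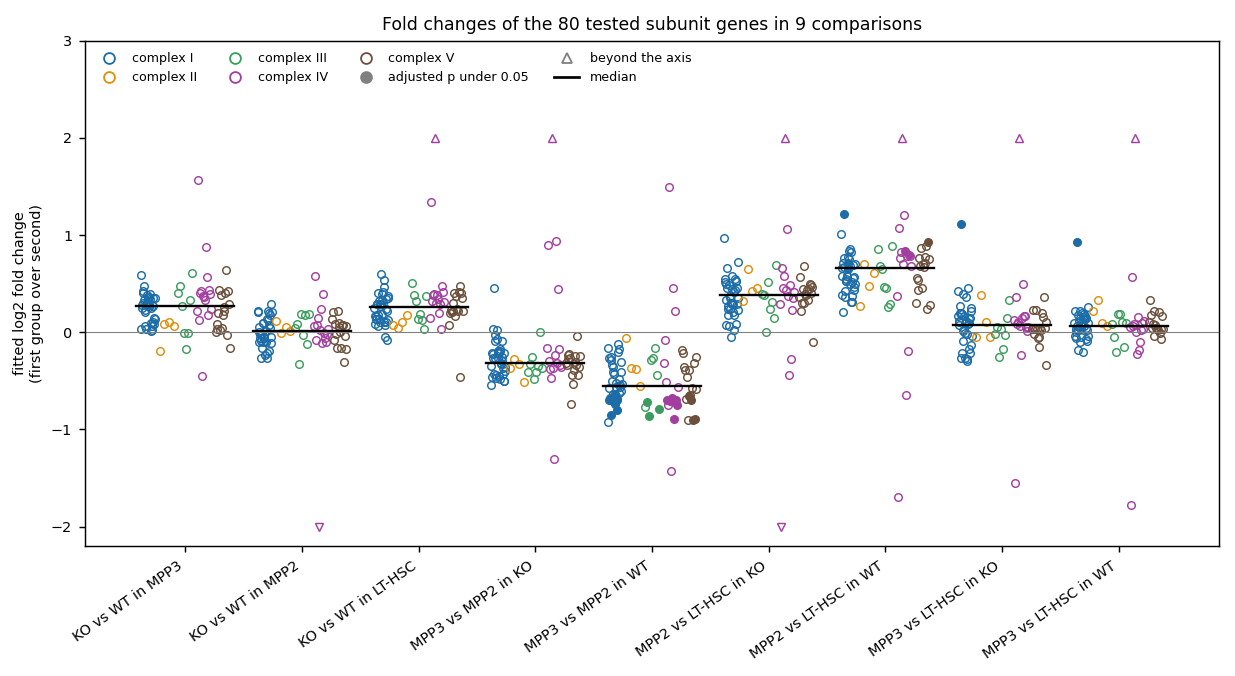
Fitted log2 fold changes of the 80 tested genes in 9 comparisons, coloured by complex, with filled points for an adjusted p under 0.05 and a bar at each median; triangles mark values beyond the axis. The medians are -0.56 for MPP3 against MPP2 in WT and 0.66 for MPP2 against LT-HSC in WT, and comparisons share libraries.

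Other mitochondrial genes were read as counts over 5 lists, which lie outside the subunit genes. Over all genes tested, 51.5% had the higher fitted value in WT MPP3 and 0.981% were called lower. Between WT MPP3 and WT MPP2, 42 of 50 assembly factors had the lower value in MPP3 and 3 fell, Uqcc2, an assembly factor of complex III (log2 fold change -0.95, SE 0.19, edgeR adjusted p = 0.0198), and Cmc2 and Cmc1, which act in the assembly of complex IV (-1.10, SE 0.23, adjusted p = 0.0256, and -0.67, SE 0.16, adjusted p = 0.0435). Of 17 electron carriers and enzymes that make ubiquinone, 12 were lower and 1 fell, Cycs, which encodes cytochrome c, with a mean of 69.0 CPM in WT MPP3, against 122.1 CPM in WT MPP2 (log2 fold change -0.82, SE 0.20, edgeR adjusted p = 0.0451). Of 21 TCA cycle genes 18 were lower, with 0 called and 0 at an unadjusted p under 0.05. Of 27 mitochondrial regulators 13 were lower, with 0 called and 3 at an unadjusted p under 0.05. Of 9 tested subunits encoded by mitochondrial DNA, 9 were lower, with 0 called and 1 at an unadjusted p under 0.05. These counts are by edgeR alone.

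Coq8a, a kinase-like protein needed to make ubiquinone, fell in 3 of the 4 comparisons of progenitors with LT-HSC. Its mean was 40.3 CPM in KO MPP3, against 106.9 CPM in KO LT-HSC (log2 fold change -1.41, SE 0.23, edgeR adjusted p = 0.0015). It was 37.6 CPM in KO MPP2 (log2 fold change against KO LT-HSC -1.51, SE 0.23, edgeR adjusted p = 0.00194). In WT it was 45.03 CPM in MPP2, against 109.7 CPM in LT-HSC (log2 fold change -1.28, SE 0.25, edgeR adjusted p = 0.0307). It was 59.1 CPM in WT MPP3, which did not pass (log2 fold change against WT LT-HSC -0.89, SE 0.25, edgeR adjusted p = 0.128). Cycs and Uqcc2 rose in WT MPP2 relative to WT LT-HSC, with log2 fold changes of 1.20 (SE 0.25, edgeR adjusted p = 0.0362) and 1.05 (SE 0.24, edgeR adjusted p = 0.0493). None of the 5 lists held an edgeR call between KO and WT in any population, with at most 3 members of a list at an unadjusted p under 0.05.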

How the data were processed

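The authors deposited whole, unscaled read counts for each gene. The submitters' processing notes name STAR and mm10. The counting program and annotation release were not given in these sources. Of 54446 gene IDs, 54409 matched GENCODE M21 and 37 did not. The counts were tested with edgeR 4.0.16 in R 4.3.3 (robust quasi-likelihood test with TMM factors), fitting the 6 groups of 21 libraries at once. The filterByExpr minimum count of 10 left 21100 genes, and p was adjusted over these (Benjamini-Hochberg, 0.05). Alternatives were RLE factors, library totals alone, no filter, blocks for library number or title run, a term for numbers 1 and 2 against 3 and 4, the compared groups alone, limma 3.58.1 voom with quality weights, DESeq2 1.42.0, leaving out each library, and, chosen after seeing the data, leaving out the 3 libraries that stood apart. The test was also run on simulated counts with known fold changes. These held no effect of library number and no libraries of odd composition, so that check does not cover such features.

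Members and lists (assembly factors, electron carriers, mitochondrial regulators, mitochondrially encoded subunits and TCA cycle genes) were chosen with earlier results of these data known. Named with values were the 2 members of smallest p per complex and comparison at 10 CPM or more, the tissue isoforms and complex II. Not all of these are printed, and Ndufs5, Cox6a1 and Atp5h are shown for their sequence. Promoters are from RefSeq, GRCm38.p6. Floors cover counting error alone, since no molecular identifiers are named. Each library is taken as 1 mouse and population, which the labels imply but do not state.

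To check pairing, each library's deviation from its group mean was correlated with that of its KO or WT partner, over 9079 genes. The MPP2 pairs gave 0.591, 0.516, 0.537 and 0.463. The MPP3 pairs gave 0.409, 0.197, 0.425 and 0.226. The 2 LT-HSC pairs gave 0.0823 and 0.112. Partners with unlike numbers averaged -0.175 in MPP2, -0.108 in MPP3 and -0.0486 in LT-HSC, and taking deviations from group means itself lowers these averages. The check cannot tell paired mice from other features that go with a number, such as the 2 kinds of MPP2 libraries. Pairs in the results, in LT-HSC as well, therefore rest on the numbers in the labels alone. The main fit did not use them.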

Additional observations from a re-analysis of the deposited data

Results flagged for a closer look

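In 198 sets of 4 values (44 members and the sums of the complexes), 13 held a value far from the other 3, and chance alone flags about 1 set in 20. WT MPP3 3 stood above the other WT MPP3 libraries in the sum of all members (23067 CPM, against 19592 to 19995), of complex I (7615 CPM, against 6813 to 6870), of complex II (1432 CPM, against 1192 to 1204) and of complex V (8039 CPM, against 6469 to 6678). KO MPP3 1 stood above the other KO MPP3 libraries for Cox6a2 (35.4 CPM, against 12.2 to 16.1), Ndufa4l2 (0.825 CPM, against 0 to 0.0569) and Cox7b2 (0.521 CPM, against 0). KO MPP2 1 stood above its group for Ndufa1 (560.1 CPM, against 234.9 to 263.5) and Ndufa4l2 (0.646 CPM, against 0.0355 to 0.0809) and below it for Cox6a1 (483.0 CPM, against 584.2 to 594.6). KO MPP3 1 and KO MPP2 1 are the libraries with 25.8% and 45.8% of counts in immunoglobulin genes, whose part in these values was not tested. Uqcrh was at 308.7 CPM in KO MPP2 4, against 356.8 to 363.9 in the other KO MPP2 libraries, and at 501.6 CPM in WT MPP2 4, against 332.6 to 335.3 in the other WT MPP2 libraries. Cox7b2 was at 0.0408 CPM in WT MPP2 2, against 0 in the other 3.

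For the 44 members, the KO effect in MPP3 was set against that in MPP2, and the MPP3 to MPP2 difference in KO against that in WT. Of these 88 comparisons, 2 had opposite directions in every pair of libraries. Ndufa4 was higher in KO in each of the 4 MPP3 pairs (mean log2 difference 0.47) and lower in each of the 4 MPP2 pairs (mean -0.26). Ndufb4 did the same, with means of 0.30 in MPP3 and -0.23 in MPP2. By edgeR's test of the difference itself, Ndufa4 differed by 0.74 (SE 0.22, unadjusted p = 0.00388, adjusted p = 1) and Ndufb4 by 0.52 (SE 0.22, unadjusted p = 0.0308, adjusted p = 1), so neither passed over all genes.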

How the results depend on the processing

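The calls depended on the setting more than the directions did. Counts in this section are of members alone. The shares of all genes called in these settings are not given, so a higher count may reflect a setting that calls more genes. For MPP3 against MPP2 in WT (23 calls), there were 0 with library totals alone, 11 with no filter, 36 with the replicate block, 35 with the term for numbers 1 and 2 against 3 and 4, 37 without the libraries that stand apart, 37 with limma voom, 37 with DESeq2, 5 with only the groups compared, and 4 to 28 when 1 library was left out. For MPP2 against LT-HSC in WT (6 calls), there were 0 with library totals alone, 1 with no filter, 0 with the block by title runs, 23 without the libraries that stand apart, 41 with limma voom, 32 with DESeq2, 0 with only the groups compared, and 0 to 8 when 1 library was left out. For MPP3 against LT-HSC in WT (1 call), library totals alone, no filter and the block by title runs gave 0, the number term, limma voom, DESeq2 and only the groups compared gave 2 each, and single omissions 0 to 1. For MPP3 against LT-HSC in KO (1 call), the replicate block, the number term, limma voom, DESeq2 and only the groups compared gave 2 each, omission of the libraries that stand apart 3, and single omissions 1 to 2. For MPP2 against LT-HSC in KO (0 calls), the replicate block and the number term gave 3 each, omission of the libraries that stand apart 6, limma voom 25, DESeq2 5 and single omissions 0 to 1. For MPP3 against MPP2 in KO (0 calls), the replicate block gave 2, the block by title runs 1, the number term 3, limma voom 5, DESeq2 2 and single omissions 0 to 1. The comparisons of KO with WT and of KO effects gave 0 calls in every setting, and the replicate block changed no other call count by over 1.5 times. The cause of these shifts was not tested. Among named genes 17 values changed sign, all near 0. In KO against WT, Sdhc in LT-HSC went to -0.0468 (replicate block) and -0.0324 (number term). Sdha in MPP2 went to -0.00629 and Sdhc in MPP2 to -0.0700 with library totals alone, and with 1 library left out they ran from -0.0253 to 0.25 and from -0.0615 to 0.17. In MPP3, Sdha went to 0.0256 without the libraries that stand apart, and Sdhc to -0.0653 with library totals alone and from -0.0532 to 0.29 with 1 library left out. In MPP3 against LT-HSC in KO, library totals alone took Atp5j2 to -0.0131 and Sdhc to -0.0843, and Sdhc was at -0.0614 (block by title runs), at -0.00490 (number term) and from -0.0595 to 0.28 with 1 library left out. Of the other values of named genes, 1486 kept their direction and side of the threshold, 226 lost and 57 gained a call. Depth limits Cox7b2, Ndufa4l2, Cox7a1 and Cox4i2, which hold few counts.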
